A study of Mus musculus with 20 samples.

Results

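A set of 10 noncoding transcripts, comprising 3 microRNA hosts, 2 nuclear architectural RNAs and 5 small nucleolar RNA (snoRNA) hosts, was followed in BV-2 microglia, an immortalised mouse microglial cell line labelled as wild type. They were Mir155hg, Mir22hg, Dleu2, Neat1, Malat1, Gas5, Snhg1, Snhg3, Snhg8 and Snhg12, found by symbol as 10 of the 55487 genes of the count table, and all 10 were among the 12799 genes with enough counts to be tested. RNA-Seq libraries came from 4 groups of 5: young untreated, aged untreated, young LPS-treated and aged LPS-treated cells. Aged cells stemmed from a stock of BV-2 microglia frozen after long-term cultivation, young cells were of low passage, and LPS (bacterial lipopolysaccharide, a Toll-like receptor ligand) was given at 100 ng/ml for 6 hours. Mir155hg had enough counts to be tested only through its LPS-treated libraries. Replicates 1 to 5 recur in every group and are labelled as batches. Because both ages derive from a single cell line, passage history and age cannot be told apart, and the spread between libraries is that of cultures of this line. The question was how these transcripts differ with culture age, with LPS and in the LPS response of aged cells.

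Long noncoding RNAs act as RNA and are not translated. MicroRNA hosts are transcribed as long precursors from which Drosha and Dicer cut a short RNA that pairs through its seed with the 3′UTR of messenger RNAs and lowers their stability or translation, and miR-155 is the microRNA best known from macrophages and microglia activated through Toll-like receptors. Neat1 scaffolds paraspeckles and Malat1 resides in nuclear speckles, while snoRNA hosts carry guide RNAs for ribosomal RNA modification in their introns and release a spliced RNA that is often degraded through nonsense-mediated decay.

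The products of the microRNA hosts are shown first, since the members that responded most to LPS were hosts of this kind. Mature sequences are from RefSeq (GRCm38.p6), written 5′ to 3′, with the seed (bases 2 to 8) in capitals. miR-155 lies within an exon of Mir155hg on chromosome 16 (the 5p arm at chr16:84714143-84714165, plus strand), miR-22 within an exon of Mir22hg on chromosome 11 (the 3p arm at chr11:75463772-75463793, plus strand), and miR-15a and miR-16-1 within Dleu2 on chromosome 14 (the 5p arms at chr14:61632075-61632096 and chr14:61631936-61631957, minus strand).
miR-155-5p: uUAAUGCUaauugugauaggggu
miR-155-3p: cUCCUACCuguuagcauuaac
miR-22-3p: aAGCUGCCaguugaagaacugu
miR-22-5p: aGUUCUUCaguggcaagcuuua
miR-15a-5p: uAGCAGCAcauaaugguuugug
miR-16-5p: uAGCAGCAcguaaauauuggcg
The 5p arms of miR-15a and miR-16 share the seed AGCAGCA, whereas the arms of miR-155 and miR-22 each have a seed of their own. None of these mature RNAs was measured: libraries were made from poly(A) RNA, and the genes Mir155 and Mir22 held at most 2 and 3 counts in any library, Mir15a at most 1 and Mir16-1 0. The values below are therefore levels of the host transcripts.

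In GENCODE M21 (GRCm38), the members ranged from the single-block genes Snhg8 (853 bases, chromosome 3) and Snhg12 (2402 bases, chromosome 4) to Dleu2, which spans 79535 bases with 11334 exonic bases in 11 blocks. Neat1 (20771 bases, all exonic) and Malat1 (6983 bases) are neighbours on the minus strand of chromosome 19 with 22035 bases between them, and Snhg3 and Snhg12 lie 36989 bases apart on chromosome 4. Within the members, 38 small RNA genes are annotated, among them 10 snoRNA genes in Gas5, 8 in Snhg1, 5 in Snhg12, 2 in Snhg3 and 1 in Snhg8. A pair of overlapping Snora16a genes in Snhg12 held the same count in 20 of 20 libraries (147 counts each over all of them), so reads were counted for every gene they overlapped. Antisense genes inside exons stayed near 0 (4 counts for Gm37376 against 84173 for Malat1, 8 for Gm17300 against 17239 for Snhg3), so the counts followed the strand. Mir22hg shares 206 exonic bases with Tlcd2 and Snhg3 shares 135 with Rcc1 on the same strand, and part of their counts cannot be told apart from those of these genes. Likewise, the short and long isoforms of Neat1 cannot be separated. Since libraries were made from poly(A) RNA, RNA without a poly(A) tail would be missed. The share of Neat1 and Malat1 RNA that was captured was not measured.

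Counts per library totalled 11371508 to 16829292, of which mitochondrial genes held 0.517% to 1.30%. All 11 microglia markers exceeded the detection floor of 3 counts in at least 1 library. Their summed levels were 2379 to 4288 CPM (counts scaled to the TMM-normalised library size). By the same rule 0 of 5 neuron, 1 of 5 astrocyte, 2 of 5 oligodendrocyte and 1 of 5 fibroblast markers exceeded it, with summed levels of at most 1.78 CPM per list. Cx3cr1 and P2ry12, defining microglial receptors, averaged 1.05 and 1.17 CPM in young untreated cells. P2ry12 averaged 0.200 and 0.0732 CPM in young and aged LPS-treated cells, below what 3 counts amount to there. Between ages, 3 of 11 microglia markers were lower in untreated aged cells, beside 7.81% of all genes tested. Under LPS 4 were lower and 1 higher, beside 15.0% and 14.0%. The part of these markers in the results below was not tested. In these bulk samples, fewer cells expressing a transcript and less RNA per cell cannot be told apart.

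Per kilobase of annotated exon, young untreated cells held most Snhg3 (53.1 CPM per kb), followed by Malat1 (47.5), Gas5 (34.9), Snhg8 (29.5) and Snhg1 (15.0). Below these stood Neat1 (9.23), Snhg12 (8.88), Mir22hg (2.33), Dleu2 (1.23) and Mir155hg (0.155). The divisor was every base that is exonic in any annotated transcript, 986 of 5673 bases for Snhg3 but all 2969 for Snhg1. The order between genes therefore depends on the annotation as well as on their levels. For Neat1 and Malat1 it also depends on the share of their RNA that was captured, which was not measured. With SDs of 3.94 CPM per kb for Snhg3 and 12.4 for Malat1, and of 2.81 for Neat1 and 1.10 for Snhg12, both of these neighbouring pairs lay within the spread between libraries. In young LPS-treated cells Mir155hg reached 8.16 and Mir22hg 11.6 CPM per kb, above Dleu2 (1.52), and Neat1 (20.2) stood above Snhg1 (18.9), though by less than the SD of Neat1 (9.83).

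**Figure D1:**
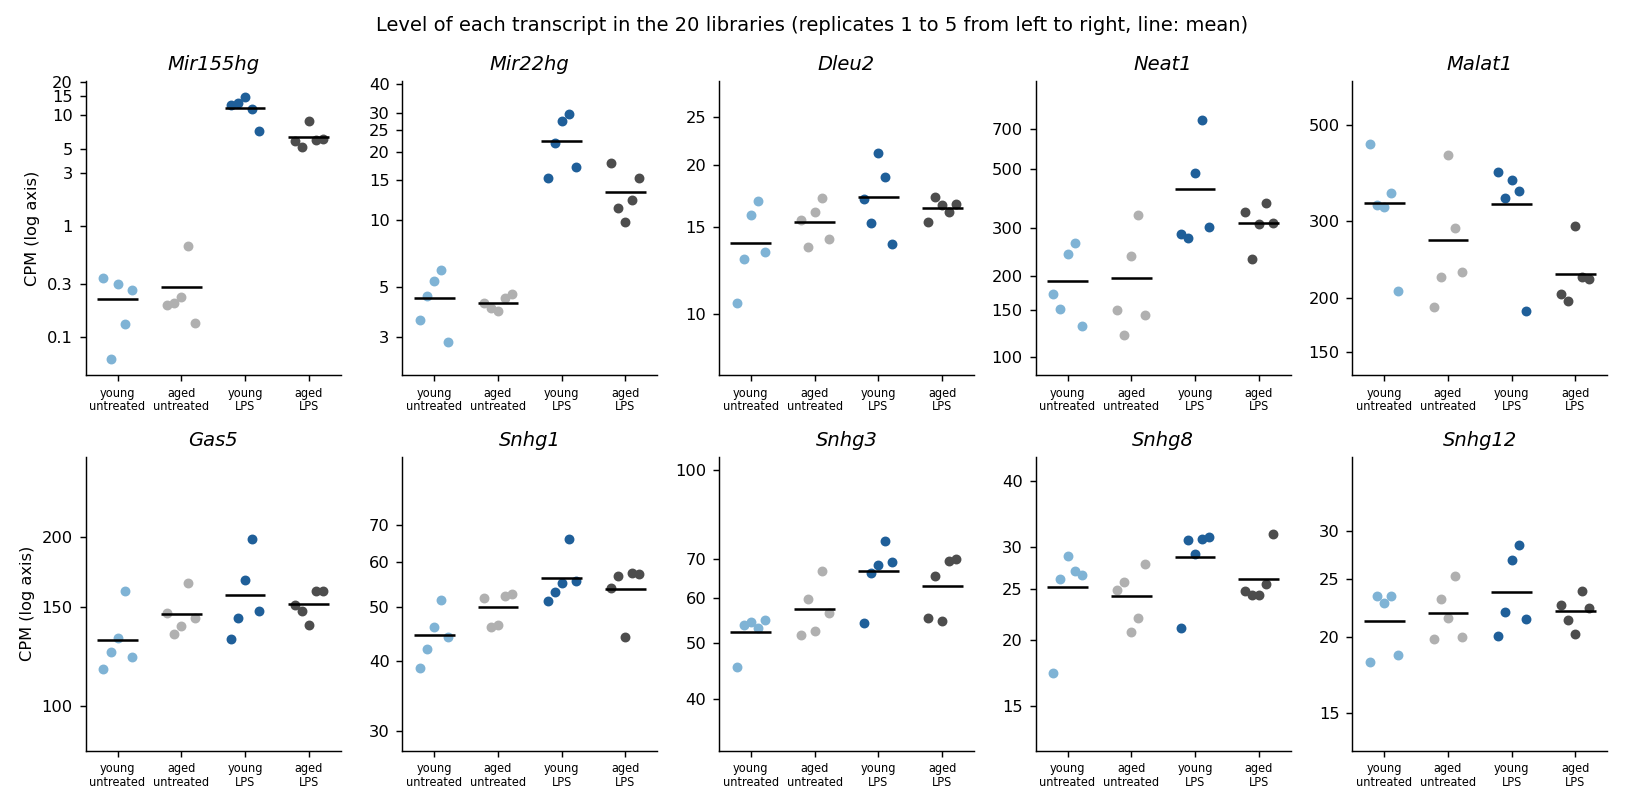
Level of each transcript in CPM (log axis, a separate scale per panel) in the 4 groups, with 1 point per library in the order of replicates 1 to 5 and a line at the group mean. Mir155hg and Mir22hg separate untreated from LPS-treated libraries at both ages, from at most 0.658 to at least 5.19 CPM for Mir155hg.

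The LPS response of young cells was the widest change among these transcripts. With edgeR's quasi-likelihood test, 7 of 10 members were higher in LPS-treated than in untreated young cells and 0 lower, beside 31.2% higher and 33.5% lower among all genes tested. In aged cells 3 of 10 rose, beside 27.5% higher and 26.9% lower. Between aged and young cells, 0 of 10 differed without LPS (3.71% of all genes were higher and 7.81% lower) and 2 of 10, Mir155hg and Mir22hg, were lower in aged cells under LPS (14.0% higher and 15.0% lower). The difference of the LPS responses of aged and young cells passed for 0 of 10 members (4.12% higher and 2.27% lower), with 2 of 10 at an unadjusted p below 0.05, and DESeq2 also called 0. For the untreated age comparison, 0 of 10 had an unadjusted p below 0.05 and DESeq2 called 0. Mir155hg entered that comparison only through its counts in LPS-treated libraries. The median log2 fold change of the 10 members was 0.09, 0.33, 0.11 and −0.12 for age without LPS, LPS in young cells, LPS in aged cells and age under LPS, against −0.01, −0.01, 0.00 and 0.01 over all genes tested. These comparisons share libraries, since each of the 4 groups enters more than a single one of them.

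**Figure D2:**
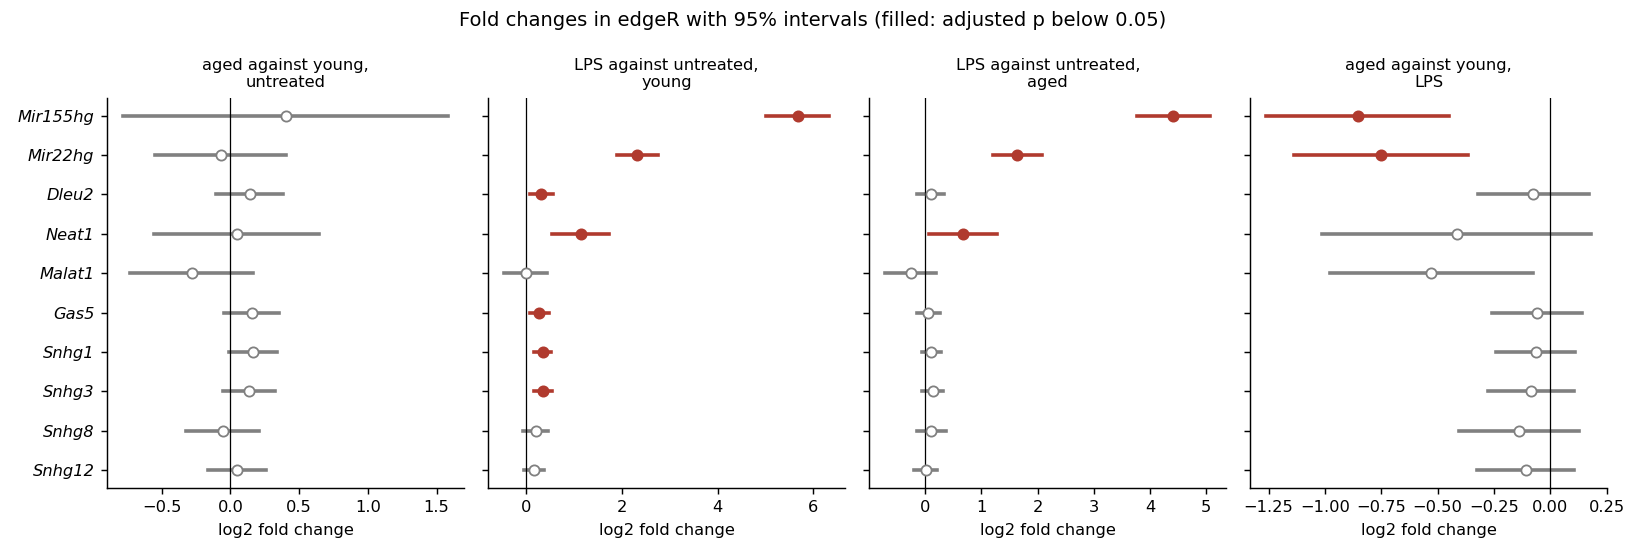
Log2 fold changes of the 10 transcripts with 95% intervals in the 4 comparisons (each panel has its own axis), with filled red symbols where the edgeR adjusted p was below 0.05. Filled symbols mark 7 transcripts for LPS in young cells, 3 for LPS in aged cells, 2 for age under LPS and 0 for age without LPS.

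Among the microRNA hosts, Mir155hg, the precursor of miR-155, changed most. Untreated young libraries held 0.344, 0.0639, 0.301, 0.132 and 0.266 CPM for replicates 1 to 5 (1 to 5 counts each), and untreated aged libraries 0.194, 0.202, 0.228, 0.658 and 0.133 CPM (2 to 12 counts). LPS brought it to 12.4, 12.8, 14.6, 11.4 and 7.21 CPM in young and to 5.89, 5.19, 8.96, 6.03 and 6.14 CPM in aged libraries. Treated and untreated libraries did not overlap at either age, and untreated levels lay around the floor of 0.165 to 0.296 CPM. The increase was 51.0-fold in young cells (log2 fold change 5.67, SE 0.31, edgeR adjusted p = 2.90e-13) and 21.4-fold in aged cells (log2 4.42, SE 0.31, edgeR adjusted p = 3.79e-11). Since the untreated groups held only 17 and 24 counts in all, the ratio of pooled rates was also computed with an exact 95% interval for counting error, 52.9 (32.8 to 91.2) in young and 22.0 (14.6 to 34.7) in aged cells. Under LPS, aged cells held 0.553 times the level of young cells (log2 −0.85, SE 0.19, edgeR adjusted p = 0.00166), lower in 5 of 5 batches although the highest aged library exceeded the lowest young one. Without LPS, the log2 difference between aged and young cells was 0.40 (interval −0.78 to 1.58, edgeR adjusted p = 0.718). In a fit of the untreated groups alone, Mir155hg had too few counts to be tested. The difference between the responses of both ages, −1.26 on the log2 scale (SE 0.60), did not pass (edgeR adjusted p = 0.251), and the interval ran from −2.52 to 0.01. Replicate 4 of the untreated aged group held 12 of the 24 untreated counts, and without replicate 4 the LPS response was 5.04 in aged and 5.55 in young cells on the log2 scale and their difference −0.50 (−1.61 to −0.50 over the alternatives).

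Mir22hg, the precursor of miR-22, followed the same course at higher levels. Untreated young libraries held 3.58, 4.60, 5.37, 5.99 and 2.86 CPM and untreated aged libraries 4.26, 4.03, 3.93, 4.50 and 4.66 CPM. With LPS, young libraries held 15.4, 22.0, 27.6, 29.6 and 17.1 CPM and aged libraries 17.9, 11.3, 9.79, 12.3 and 15.3 CPM. All treated libraries stood above all untreated ones, while young and aged treated libraries overlapped, with replicate 1 higher in the aged group. LPS raised Mir22hg 4.99-fold in young cells (log2 2.32, SE 0.20, edgeR adjusted p = 8.49e-10) and 3.11-fold in aged cells (log2 1.64, SE 0.21, edgeR adjusted p = 5.27e-07). Aged LPS-treated cells held 0.594 times the young level (log2 −0.75, SE 0.18, edgeR adjusted p = 0.00321), lower in 4 of 5 batches. The difference of the responses, −0.68 (SE 0.29), had an edgeR adjusted p of 0.189.

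Dleu2, the host of miR-15a and miR-16-1, changed little. It was measured at 10.5, 12.9, 15.8, 16.9 and 13.3 CPM in young and 15.5, 13.7, 16.0, 17.1 and 14.2 CPM in aged untreated libraries. Under LPS the values were 17.1, 15.2, 21.1, 18.9 and 13.8 CPM in young and 15.3, 17.2, 16.6, 16.1 and 16.7 CPM in aged libraries. All 4 groups overlapped. Dleu2 was 1.24-fold higher with LPS in young cells (log2 0.31, SE 0.12, edgeR adjusted p = 0.0225), in 5 of 5 batches, whereas in aged cells the log2 fold change was 0.10 (interval −0.15 to 0.34, edgeR adjusted p = 0.506). The call in young cells was lost without replicate 1 (log2 0.22, edgeR adjusted p = 0.122), without replicate 3 (0.27, 0.0739) and in a fit of only the groups compared (0.31, 0.0646).

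Neat1, counted in poly(A) RNA without separating its isoforms, rose with LPS at both ages. Untreated young libraries held 172, 151, 242, 264 and 130 CPM and untreated aged libraries 150, 120, 236, 337 and 144 CPM. LPS-treated libraries held 287, 278, 480, 754 and 303 CPM in young and 344, 230, 312, 374 and 315 CPM in aged cells. Replicate 4 was the highest library in 4 of 4 groups and replicate 2 the lowest in 3 of 4, and treated exceeded untreated cells in 5 of 5 batches at either age. Replicate 4 also had the highest mitochondrial share in 2 of 4 groups (0.829% to 1.30% over its libraries), and the part of this in the level of Neat1 was not tested. The increase in young cells was 2.19-fold (log2 1.13, SE 0.28, edgeR adjusted p = 0.00141), with no overlap between treated and untreated libraries. In aged cells it was 1.59-fold (log2 0.67, SE 0.28, edgeR adjusted p = 0.0489) with overlap, and the call was kept in 6 of 13 alternatives. With the batch as a block, which removes the spread between replicate numbers, the log2 fold changes were 1.07 (edgeR adjusted p = 1.45e-06) and 0.78 (8.62e-05). Between aged and young cells under LPS the log2 difference was −0.42 (interval −1.01 to 0.18, edgeR adjusted p = 0.297).

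Malat1, the speckle RNA encoded next to Neat1, did not pass in either LPS comparison. It stood at 451, 327, 324, 348 and 207 CPM in young and 191, 223, 427, 290 and 229 CPM in aged untreated libraries. With LPS it stood at 390, 340, 374, 352 and 186 CPM in young and 204, 196, 293, 223 and 221 CPM in aged libraries. Replicate 5 was the lowest of both young groups and replicate 3 the highest of both aged groups, and all groups overlapped. LPS gave log2 fold changes of −0.01 in young cells (interval −0.46 to 0.43, edgeR adjusted p = 0.959) and −0.26 in aged cells (−0.71 to 0.19, edgeR adjusted p = 0.316). Under LPS, aged cells were 0.693 times as high as young cells (log2 −0.53, SE 0.21), lower in 4 of 5 batches, with an edgeR adjusted p of 0.0663 that became 0.0320 with the batch as a block. This difference passed in 6 of 13 alternatives, with adjusted p from 0.0158 to 0.246. With TMM scaling, Malat1 was the only member whose highest mean was in a group other than young LPS-treated cells. The TMM factors were lowest in that group. This order of means was not checked with other scalings or against all genes.

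**Figure D3:**
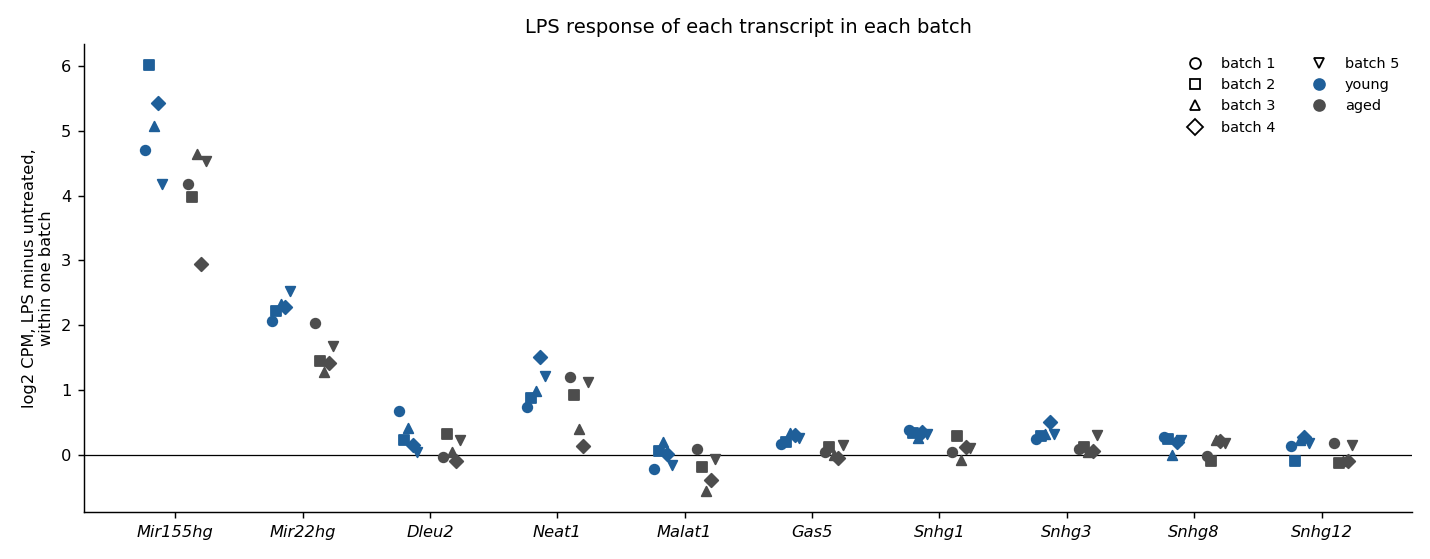
Log2 CPM of LPS-treated minus untreated libraries within each batch (symbols) for young (blue) and aged (grey) cells. All 5 batches of both ages lie above 0 for Mir155hg, Mir22hg and Neat1, with Neat1 between 0.74 and 1.51 in young and between 0.15 and 1.20 in aged cells.

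The snoRNA hosts formed a group of small responses. Gas5, a host that as a spliced RNA also binds the glucocorticoid receptor, was measured at 116, 124, 132, 160 and 122 CPM in untreated young and 147, 134, 139, 166 and 144 CPM in untreated aged libraries. LPS-treated libraries held 132, 143, 168, 199 and 147 CPM in young and 151, 147, 140, 160 and 160 CPM in aged cells. The groups overlapped, yet Gas5 was higher with LPS in 5 of 5 young batches (log2 0.27, SE 0.09, edgeR adjusted p = 0.0164), a call that was lost without replicate 3 (log2 0.24, edgeR adjusted p = 0.0683). In aged cells its log2 fold change was 0.06 (edgeR adjusted p = 0.636).

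Snhg1 held 38.8, 42.0, 46.0, 51.3 and 44.1 CPM in untreated young and 51.9, 46.0, 46.4, 52.2 and 52.8 CPM in untreated aged libraries. After LPS it held 51.1, 53.2, 55.2, 66.0 and 55.6 CPM in young and 54.0, 56.6, 44.2, 57.3 and 57.1 CPM in aged libraries. Only the highest untreated young library reached into the range of treated young libraries. Snhg1 was 1.27-fold higher with LPS in young cells (log2 0.34, SE 0.08, edgeR adjusted p = 0.00105), against a log2 fold change of 0.11 in aged cells (edgeR adjusted p = 0.275). Aged untreated exceeded young untreated cells in 5 of 5 batches (log2 0.17, interval −0.01 to 0.34), which did not pass (edgeR adjusted p = 0.209). The same direction in 5 of 5 batches was seen for Gas5 (log2 0.15, edgeR adjusted p = 0.325) and Dleu2 (0.14, 0.490), which did not pass either.

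Snhg3, the host of the H/ACA RNAs Snora73a and Snora73b (U17), held 45.5, 53.8, 54.4, 53.0 and 54.9 CPM in untreated young and 51.5, 59.7, 52.4, 66.7 and 56.5 CPM in untreated aged libraries. With LPS the values were 54.3, 66.1, 68.3, 75.4 and 69.2 CPM in young and 55.3, 65.5, 54.6, 69.6 and 69.9 CPM in aged libraries. Replicate 1 was the lowest library in 3 of 4 groups, and 4 of 5 treated young libraries exceeded all untreated young ones. The increase was 1.28-fold in young cells (log2 0.35, SE 0.09, edgeR adjusted p = 0.00169) and 1.10-fold in aged cells (log2 0.13, edgeR adjusted p = 0.221), where it was positive in 5 of 5 batches.

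Snhg8 ranged from 17.3 to 28.8 CPM in young untreated, 20.7 to 27.9 in aged untreated, 21.1 to 31.4 in young LPS-treated and 24.3 to 31.8 in aged LPS-treated libraries. Snhg12, which hosts Snora16a, Snora44, Snora61 and Snord99, ranged from 18.2 to 23.4, 19.9 to 25.3, 20.1 to 28.5 and 20.3 to 23.9 CPM in the same order. Neither passed in any comparison, although Snhg8 was higher with LPS in 5 of 5 young batches. For LPS in young cells the log2 fold changes were 0.19 for Snhg8 (interval −0.07 to 0.46, edgeR adjusted p = 0.181) and 0.16 for Snhg12 (−0.05 to 0.37, edgeR adjusted p = 0.167). The intervals of the 5 snoRNA hosts in this comparison overlapped one another.

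The small increases in young cells depend on the scaling. TMM factors were 0.891 to 0.931 in young LPS, 0.952 to 0.973 in aged LPS and 1.04 to 1.08 in untreated libraries. Scaled by library size alone, the median log2 fold change of all genes was −0.23 for LPS in young and −0.16 in aged cells. Under that scaling, Gas5 (log2 0.05), Snhg1 (0.12), Snhg3 (0.13) and Dleu2 (0.09) did not pass in young cells, and 3 members, Mir155hg, Mir22hg and Neat1, did. The share of higher genes among those called went from 48.2% to 27.3% for LPS in young cells, from 50.6% to 28.4% in aged cells, from 48.3% to 70.1% for age under LPS, from 32.2% to 42.2% for age without LPS and from 64.4% to 81.3% for the difference of the responses.

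Promoter windows of RefSeq (GRCm38.p6) were matched for 9 of 10 members, Neat1 being without one. The windows of the snoRNA hosts are shown from 60 bases before to 50 after the RefSeq start, 5′ to 3′, because 3 of these 5 genes rose together in young cells. Capitals mark TATAAA on either strand, the palindrome TGACGTCA, and in Snhg12 a C followed by at least 6 pyrimidines near the start, the form of a terminal oligopyrimidine tract.
Gas5, chr1:161035106-161035215, plus strand: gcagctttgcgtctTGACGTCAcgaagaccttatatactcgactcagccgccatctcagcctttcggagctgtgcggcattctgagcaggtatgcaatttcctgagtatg
Snhg1, chr19:8723427-8723536, plus strand: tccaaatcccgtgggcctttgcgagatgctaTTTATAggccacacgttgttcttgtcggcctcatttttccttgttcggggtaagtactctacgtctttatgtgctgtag
Snhg3, chr4:132353637-132353746, minus strand: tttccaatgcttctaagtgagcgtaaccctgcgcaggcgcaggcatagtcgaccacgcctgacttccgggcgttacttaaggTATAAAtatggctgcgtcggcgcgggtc
Snhg8, chr3:123508287-123508396, minus strand: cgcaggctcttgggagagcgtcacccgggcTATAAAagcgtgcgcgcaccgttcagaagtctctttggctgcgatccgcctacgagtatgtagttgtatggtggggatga
Snhg12, chr4:132308618-132308727, plus strand: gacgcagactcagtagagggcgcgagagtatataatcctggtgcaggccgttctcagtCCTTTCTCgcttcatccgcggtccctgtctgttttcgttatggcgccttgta
TATAAA was found in Snhg1 (29 bases before the start, on the opposite strand), Snhg8 (30 before), Snhg3 (22 after) and Dleu2 (15 after), and 13.6% of all 32851 windows held it on either strand. TGACGTCA, a cyclic AMP response element that 1.79% of windows held, lay 46 bases before the start in the second window of Gas5, and the first window of Gas5 had no match. The tract at the start of Snhg12 was of a kind found in 8.36% of windows, and with at least 4 pyrimidines after the C, a limit chosen after seeing the windows, Mir22hg, Gas5, Snhg3 and Snhg8 had it as well (23.2% of windows). Outside these, Snhg8 held a κB site 80 bases before its start (8.46% of windows) and Dleu2 a CACGTG (7.15%), while TGANTCA (7.81%) and TGATGNAAT (0.965%) were in none of the members' windows. For the 2 members with the largest LPS responses, Mir22hg held none of the listed motifs beyond the shorter tract, and Mir155hg held GAAANNGAA, an interferon-response-like sequence in capitals here, which 8.56% of windows held. Its RefSeq start lies 9856 bases inside the GENCODE gene. The window therefore does not cover the GENCODE start of Mir155hg, where no motifs were searched.
Mir155hg, chr16:84712773-84713072, plus strand: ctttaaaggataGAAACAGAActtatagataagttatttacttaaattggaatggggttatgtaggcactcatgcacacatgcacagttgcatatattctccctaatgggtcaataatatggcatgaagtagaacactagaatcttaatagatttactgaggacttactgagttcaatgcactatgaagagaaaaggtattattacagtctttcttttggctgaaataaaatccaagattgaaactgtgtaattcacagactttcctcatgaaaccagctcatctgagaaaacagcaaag
All motifs were searched on both strands except the tract, and TGACGTCA and CACGTG read the same on both. Such a match describes the letters of a window.

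Of the known targets of miR-155, 17 of 19 listed genes were tested. In young cells 9 were higher and 3 lower with LPS, beside 31.2% and 33.5% of all genes tested. In aged cells 8 were higher and 5 lower, beside 27.5% and 26.9%. The medians were 0.20 and 0.18 on the log2 scale, against −0.01 and 0.00 over all genes tested. Between aged and young cells under LPS, 0 were higher and 11 lower (median −0.26 against 0.01), beside 15.0% of all genes. An 8-base match to the miR-155-5p seed followed by an A was found in an annotated 3′UTR of 9 listed genes, of which 8 are shown here, because they link the host that changed most to the transcripts it could act on, as 30 bases of GENCODE M21 transcripts (GRCm38) with the site in capitals.
Socs1, chr16:10784195-10784224, minus strand: cgctgtgccgcAGCATTAAgtgggggcgcc
Inpp5d, chr1:87719827-87719856, plus strand: tgtttttaaaaAGCATTAAagaaaaccatc
Bach1, chr16:87732177-87732206, plus strand: atgaacagtttAGCATTAAgggttaatttt
Cebpb, chr2:167690355-167690384, plus strand: tttccgtttcgAGCATTAAagtgaagacat
Spi1, chr2:91115426-91115455, plus strand: ccgccggccatAGCATTAAcccgtcgcccg
Tab2, chr10:7906680-7906709, minus strand: ataaggtagaaAGCATTAAtgaaatgaaac
Jarid2, chr13:44920082-44920111, plus strand: gattttgttttAGCATTAAactgttcaagt
Jarid2, chr13:44920855-44920884, plus strand: tccctcacatcAGCATTAAtctttgtttcc
Tle4, chr19:14448154-14448183, minus strand: tcagacttttaAGCATTAAacataaataac
Socs1, an inhibitor of cytokine signalling, was 0.268 CPM, around the detection floor, in young untreated and 9.26 CPM in young LPS-treated cells, and 4.62 CPM in aged LPS-treated cells (log2 5.10 and 3.36 with LPS, edgeR adjusted p = 9.96e-12 and 1.01e-08). Inpp5d (SHIP1), a phosphatase that restrains phosphoinositide signalling, fell by 1.68 and 1.51 on the log2 scale in young and aged cells (edgeR adjusted p = 1.04e-13 and 1.24e-12). Cebpb, a transcription factor of the myeloid stress response, rose by 1.5 and 1.24 (edgeR adjusted p = 2.76e-15 and 1.22e-13). Thus these genes with a site moved in both directions. Spi1 (PU.1), Bach1 and Tab2 were higher with LPS in young cells (log2 1.23, 0.36 and 0.20), and Jarid2 (−0.09) and Tle4 (0.00) did not pass there. In aged cells Jarid2 and Tle4 fell by 0.37 and 0.18 on the log2 scale (edgeR adjusted p = 0.000243 and 0.0327), and Tab2 (0.06) did not pass. Among the other listed genes, Ikbke, an inducible kinase, rose by 2.76 and 2.93 in young and aged cells. Peli1 was the only listed target for which the difference of the responses passed (log2 −0.75, edgeR adjusted p = 0.000224).

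Across all tested genes with an annotated 3′UTR (10844), 377 held the 8-base site of miR-155-5p. Of them, 35.3% were higher and 39.5% lower with LPS in young cells, against 33.0% and 36.8% of the other 10467 genes, and the medians were −0.06 and −0.03 on the log2 scale. In aged cells 31.3% were higher and 30% lower, against 29.6% and 29.8%. For age without LPS, 5.57% were higher and 11.9% lower, against 4.19% and 8.77%. Of the 328 genes with a site for miR-155-3p, 30.8% were higher and 42.7% lower with LPS in young cells, against 33.1% and 36.7% without it. In aged cells the shares were 27.1% and 34.8%, against 29.7% and 29.7%. None of these differences was tested. The 271 genes with a site for miR-22-3p were 32.5% higher and 39.1% lower in young cells, and the 524 genes with the shared site of miR-15a-5p and miR-16-5p 32.6% and 38.5%, close to the genes without these sites (33.0% and 36.8%, and 33.1% and 36.8%). These shares are descriptions of messenger RNA and say nothing of translation. Of 10 listed targets of miR-15/16, 6 were higher and 1 lower in aged than in young cells under LPS (median 0.34), beside 14.0% higher and 15.0% lower among all genes tested (median 0.01). The higher ones were the cyclins Ccnd1, Ccnd2, Ccnd3 and Ccne1 (log2 0.32, 0.57, 0.36 and 0.90) and the cell cycle kinases Wee1 and Chek1 (0.55 and 0.65), and the lower one was Mcl1 (−0.26), a survival factor that LPS raised by 1.16 in young cells.

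The nearest tested protein-coding gene within 100 kb was found for 9 of 10 members, Snhg8 having none. Trim13, which overlaps Dleu2 on the opposite strand, rose by 1.98 and 1.89 on the log2 scale with LPS in young and aged cells (edgeR adjusted p = 3.39e-13 and 1.88e-12), beside 0.31 and 0.10 for Dleu2. Slc3a2, an amino acid transporter subunit whose start lies 106 bases from that of Snhg1, rose by 0.98 and 0.81 (edgeR adjusted p = 9.04e-13 and 4.74e-11), beside 0.34 and 0.11 for Snhg1. Dleu2 and Snhg1 thus stood beside a gene with a larger LPS response. By a smaller margin, the neighbour's estimate was also larger for Snhg12 at both ages and for Mir22hg in young cells. Mrpl39, a mitochondrial ribosomal protein gene near Mir155hg, rose by 0.84 and 0.59, less than the host. Tlcd2, the neighbour of Mir22hg, averaged 0.254 CPM, around the detection floor, in untreated and 1.41 CPM in LPS-treated young cells (log2 2.49, edgeR adjusted p = 1.36e-05). It shares exonic bases with Mir22hg on the same strand. Reads there count for both genes, so these 2 estimates are not independent. Frmd8 (0.01), beside Neat1, did not pass with LPS in young cells, nor did Zbtb37 (−0.21), which overlaps Gas5 on the opposite strand, or Rcc1 (0.03), which overlaps Snhg3. Rcc1 was higher in aged than in young cells both without and with LPS (log2 0.21 and 0.21, edgeR adjusted p = 0.0196 and 0.00633). Trnau1ap, near Snhg12, rose by 0.23 in young cells (edgeR adjusted p = 0.00652).

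**Figure D4:**
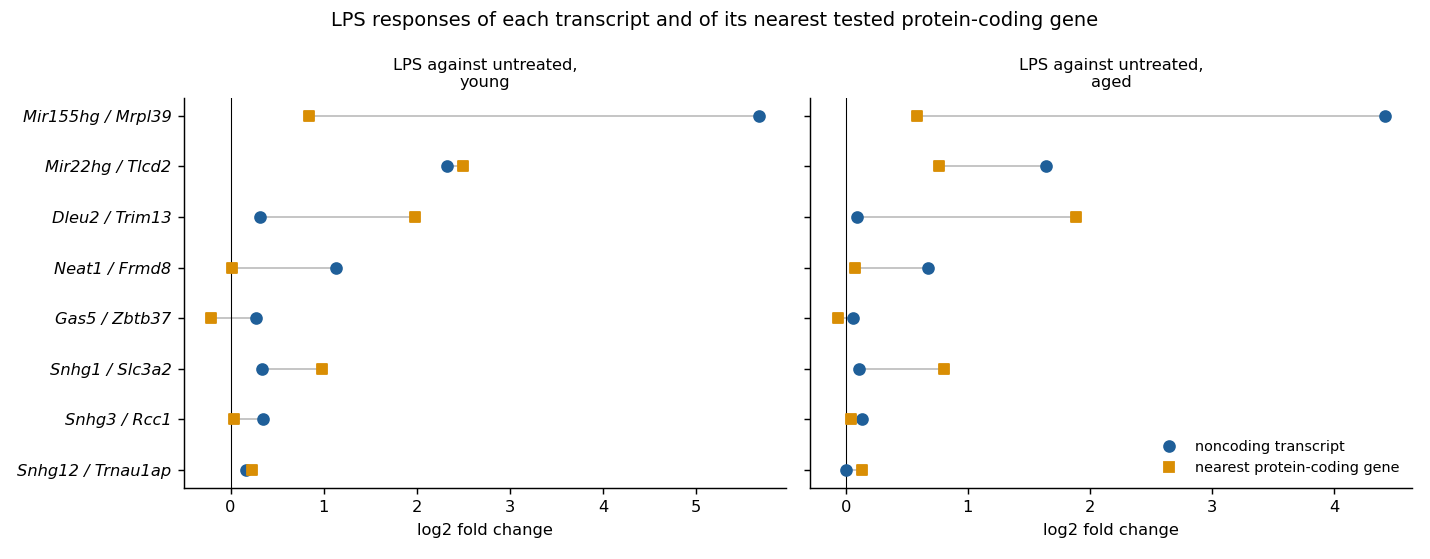
Log2 fold changes with LPS in young (left) and aged (right) cells for 8 noncoding transcripts (circles) and their nearest tested protein-coding genes (squares). The square lies to the right of the circle for Dleu2, Snhg1 and Snhg12 in both panels, and for Mir22hg in young cells. It lies far to the left of the circle for Mir155hg and Neat1. The neighbour of Mir22hg, Tlcd2, shares exonic bases with it and stood around the detection floor in untreated young cells.

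Profiles over the 20 libraries, centred on their means, were compared by the root mean square difference of log2 CPM. The 3 genes nearest to Mir155hg were Oasl1, an interferon-inducible gene, the chemokine Ccl3 and the cytokine Tnf, at differences of 0.42, 0.44 and 0.47, against an SD of 2.34 for Mir155hg itself. Ccl3 and Tnf rose by 4.80 and 5.07 on the log2 scale with LPS in young cells and by 4.49 and 4.75 in aged cells. Under LPS, Oasl1, Ccl3 and Tnf were lower in aged cells by log2 differences of −1.03, −0.59 and −0.88, beside −0.85 for Mir155hg, and the difference of the responses passed for Oasl1 (−0.75, edgeR adjusted p = 0.017). Nearest to Mir22hg were Zdhhc18, Zswim4 and Mcoln2 (0.27 to 0.28, own SD 1.05), of which Mcoln2, a lysosomal cation channel, had a smaller LPS response in aged cells (log2 −0.48, edgeR adjusted p = 0.00881). The 3 genes nearest to Neat1, Gm28006, Gm27505 and Gm27533, are annotated inside Neat1 itself and hold reads of it. For Malat1 they were Abca7, Mapre3 and Firre (0.24 to 0.25, own SD 0.41), and Abca7, a lipid transporter, was lower in aged cells without and with LPS (log2 −0.44 and −0.51, edgeR adjusted p = 0.00613 and 0.000595). The nearest genes of the other 6 members were Msantd2, 1810032O08Rik and Lime1 for Gas5, Smg5, Zrsr2 and Jmjd6 for Snhg1, Fam98a, Pus7l and Ap5b1 for Snhg3, Pla2g4a, Cap1 and Slc15a4 for Snhg8, Mdm4, Khdc4 and Nfrkb for Snhg12, and Ulk3, Prpf38b and 2410002F23Rik for Dleu2, at differences of 0.07 to 0.13 against own SDs of 0.16 to 0.22. These profiles are descriptions and share libraries, depth and batches.

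Other transcripts and proteins of the same pathways were counted from lists, with TMM scaling only. With library size alone, the median log2 fold change of all genes was −0.23 for LPS in young cells. Whether list changes of a similar or smaller size would be kept under that scaling was not tested. Beside these counts, 31.2% of all genes tested were higher and 33.5% lower with LPS in young cells, and 27.5% and 26.9% in aged cells. For age without LPS the shares were 3.71% higher and 7.81% lower. Of 9 other snoRNA hosts tested, 4 were higher with LPS in young cells, Zfas1, Snhg17, Snhg15 and Snhg6 (log2 0.74, 0.38, 0.38 and 0.32), 0 lower, and 1, Zfas1 (0.32), higher in aged cells. The median in young cells was 0.31, beside −0.01 over all genes. Zfas1 responded less in aged cells (difference −0.42, edgeR adjusted p = 0.0298), and Snhg15 was the one host higher in aged untreated cells (0.27, edgeR adjusted p = 0.0208). Of 15 tested snoRNP core and assembly proteins, 7 were higher and 1 lower in young LPS-treated cells, led by the box C/D core proteins Nop56 and Nop58 (log2 0.51 and 0.45), and 6 were higher in aged cells. Without LPS, Dkc1 and Ruvbl1 were higher in aged cells (0.14 and 0.18). Of 14 nonsense-mediated decay factors, 7 were higher and 2 lower in young LPS-treated cells. Smg8 rose by 0.37, Smg6 and Upf3b fell by 0.47 and 0.43, and Upf3b was higher in aged untreated cells (0.23).

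The lists around the microRNA hosts gave a different picture. The shares of all genes tested were again 31.2% higher and 33.5% lower with LPS in young cells, and 27.5% and 26.9% in aged cells. Of 5 transcripts listed as other microRNA hosts and tested, 0 were higher and 1, Mirt1 (log2 −0.93), lower with LPS in young cells, but Mirt1 is a long noncoding RNA that is not known to host a microRNA, so 0 of the other 4 passed. Mir99ahg (−0.82) was lower in aged than in young cells under LPS. Mir17hg and Mir142hg had log2 fold changes of −0.01 and 0.57 in young cells and did not pass. Of 16 microRNA processing proteins, 4 were higher and 9 lower in young LPS-treated cells (median −0.20) and 4 higher and 7 lower in aged cells. The largest decreases were in Ago4, an Argonaute (26.7 to 5.73 CPM, log2 −2.23, edgeR adjusted p = 1.98e-13), and Tnrc6b, a silencing partner of Argonautes (86.8 to 31.9 CPM, log2 −1.44, edgeR adjusted p = 1.14e-13), and both fell less in aged cells (differences 0.73 and 0.78, edgeR adjusted p = 0.0103 and 0.000136). Ago4 and Tnrc6b were also lower in aged untreated cells (log2 −0.54 and −0.24). Under LPS, Tnrc6b was higher in aged than in young cells (log2 0.54, edgeR adjusted p = 1.29e-05), and Ago4 did not pass (0.19, 0.322). Of the 16 proteins, 6 were higher and 1, Ago3 (−0.30), lower in aged cells under LPS, beside 14.0% and 15.0% of all genes tested.

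Of 16 paraspeckle proteins, 10 were higher and 2 lower with LPS in young cells, beside 31.2% and 33.5% of all genes tested. In aged cells 7 were higher and 1 lower, beside 27.5% and 26.9%. The medians were 0.17 and 0.14. For the age comparisons of the lists below, the shares of all genes were 3.71% higher and 7.81% lower without LPS. Under LPS they were 14.0% and 15.0%. The changes were small: Hnrnpk rose by 0.44 and Nono, a core paraspeckle protein, by 0.16 in young cells, while Hnrnpr fell by 0.47. Of 11 nuclear speckle proteins, 2 were higher (Srsf2, 0.20, and Rnps1, 0.22) and 1 lower (Prpf8, −0.12) in young LPS-treated cells, and 1 was higher and 1 lower in aged cells both without LPS (Pnn, 0.22, and the speckle scaffold Son, −0.24) and with LPS (Srsf1, 0.15, and Son, −0.31). Among 10 other long noncoding transcripts tested, 6 were higher and 1 lower in young LPS-treated cells. Ptgs2os2, antisense beside the prostaglandin synthase gene Ptgs2, rose by 3.11 and 2.39 in young and aged cells (edgeR adjusted p = 6.36e-12 and 6.08e-10), Airn by 0.67 and 0.79 and Tug1 by 0.47 and 0.33, while Hotairm1 fell by 0.55 and 0.39. Over all 772 long noncoding genes tested, 26.0% were higher and 22.7% lower with LPS in young cells, 19.3% and 18.0% in aged cells, and 2.98% and 10.2% for age under LPS. All 11 genes of the NF-κB pathway list were higher with LPS at both ages (medians 2.22 and 2.10). All 11 were lower in aged than in young LPS-treated cells (median −0.39). Without LPS, 5 were already lower in aged cells (Nfkb1, Relb, Nfkbiz, Tnfaip3 and Bcl3) and 0 higher (list median −0.22). Tnfaip3 and Nfkbiz rose by 4.05 and 3.54 in young cells and by 3.95 and 3.45 in aged cells. The difference of the responses passed for 1 gene, Nfkbib (log2 −0.49, edgeR adjusted p = 0.0119), beside 2.27% lower among all genes tested.

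**Figure D5:**
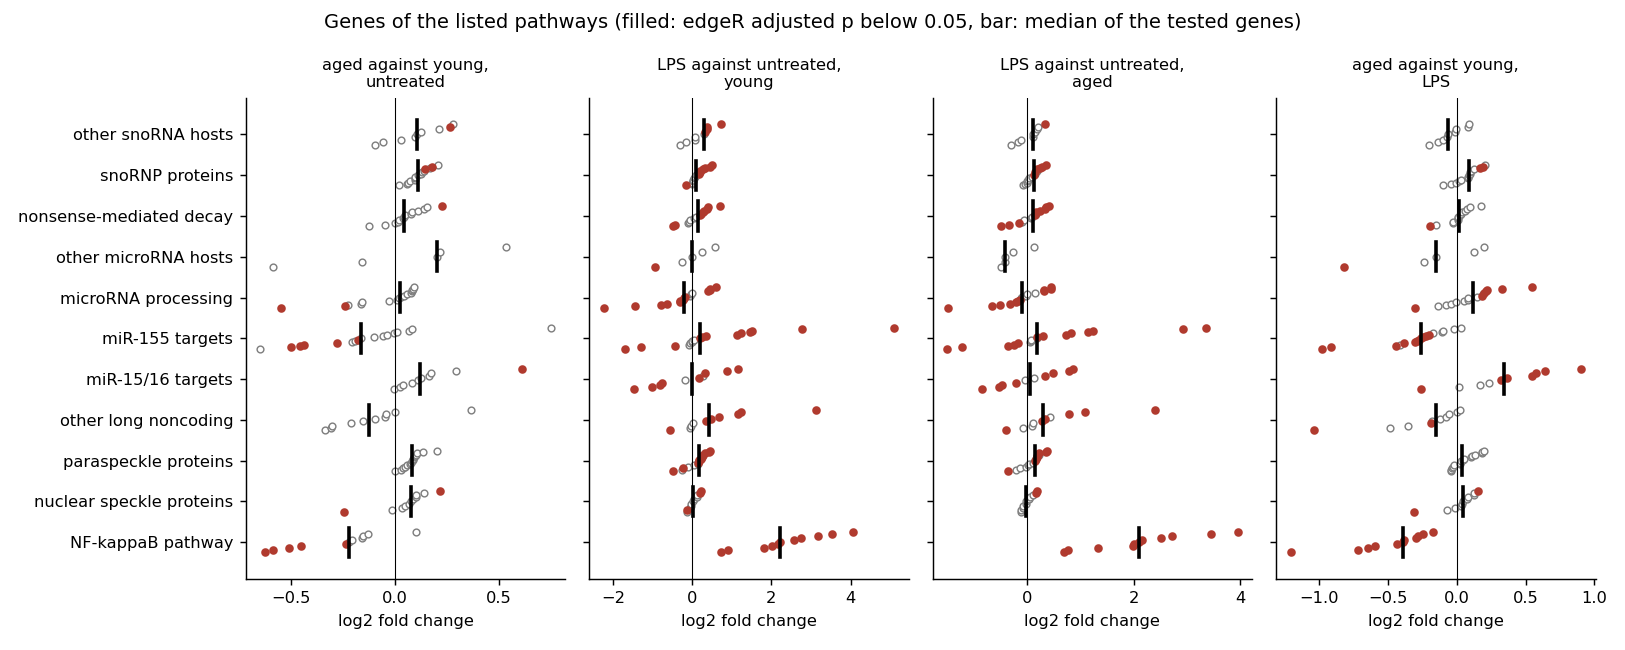
Log2 fold changes of the tested genes of 11 lists in the 4 comparisons (each panel has its own axis), 1 point per gene, filled red where the edgeR adjusted p was below 0.05, with a bar at the list's median. The NF-κB list lies to the right of 0 with LPS at both ages and to the left of 0 for age under LPS, and the 2 lowest microRNA processing points with LPS in young cells are Ago4 and Tnrc6b. The filled point among the other microRNA hosts in that panel is Mirt1.

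Reads over the annotated small RNAs that lie in exons were set against all reads of their host, a measure chosen after the data had been seen. In young untreated cells they made up 9.46% ± 3.44 (SD, n = 5) of the reads of Snhg12, 6.74% ± 1.20 of Snhg1, 5.09% ± 1.74 of Snhg3 (Snora73a alone, since Snora73b lies in an intron), 4.75% ± 1.23 of Neat1, 3.30% ± 0.753 of Gas5, 1.45% ± 0.703 of Snhg8 and 0.71% ± 0.163 of Malat1. The shares of aged and young LPS-treated cells had the lowest p for Snhg3, 6.08% ± 0.556 against 4.54% ± 0.553. An exact two-sided permutation test over all splits of 5 against 5 libraries gave p = 0.00794 there, the smallest that this design allows, with an adjusted p of 0.222 over 28 comparisons, and 0 of 28 passed after adjustment.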

How the data were processed

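The authors deposited whole-number counts of reads per gene for 20 BV-2 libraries (4 groups of 5), without normalisation. Poly(A) RNA was prepared with a stranded kit and sequenced in pairs, and the methods name STAR 2.6.1d, the Ensembl annotation of GRCm38 and featureCounts 1.5.1. Groups and replicate numbers came from the sample labels. Members were found by gene symbol through GENCODE M21, which held 55227 of the 55487 gene identifiers.

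Library sizes were scaled by TMM, genes with low counts were removed by filterByExpr (12799 kept), and all 20 libraries entered 1 quasi-likelihood fit with group as the only factor in edgeR 4.0.16 (R 4.3.3), with Benjamini-Hochberg adjustment over all genes tested and a threshold of 0.05. A prior count of 2 entered the log2 CPM values, the detection floor was 3 counts, and intervals are 95%. Floors and pooled-count intervals cover counting error only. On simulated counts (aged against young untreated, 12500 genes), 200 of 200 genes changed 2-fold were recovered, with 13 false calls. Every simulated gene had the same spread, without batches, and only genes with ample counts were changed. The simulation therefore checks the fit and gives no power for genes as variable as Neat1 or as low as untreated Mir155hg.

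The labels give the replicate number as the batch, so equal numbers pair the samples. Deviations of same-numbered libraries correlated with a mean r of 0.146 over 30 pairs (−0.21 to 0.39). Replicates of a group differed beyond sampling noise (chi-square per degree of freedom 2.31 to 24.4 over 40 pairs). Alternatives were DESeq2 1.42.0, the batch as a block, other scalings, filters and thresholds, a fit of only the groups compared, and leaving out each replicate.

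Named genes were all members, their nearest tested protein-coding gene within 100 kb, the 3 genes of most similar profile, and, per list, the 2 genes with the smallest p for LPS in young cells and the 2 for age without LPS, with any gene a count of 5 or fewer refers to. Others named (among them the target genes with a site, and Snhg17, Snhg6, Smg6 and Prpf8) were chosen after their values were seen. The members and lists were chosen with earlier results of these data known, and the target lists come from textbook knowledge. A few genes that the rule names are not reported here.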

Additional observations from a re-analysis of the deposited data

Results flagged for a closer look

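Single libraries stood apart from the other 4 of their group, with a gap to the nearest library above Dixon's critical value of 0.71 of the range, in 9 of 40 groups of 5 tested, where chance flags about 1 in 20. Malat1 was low in young LPS-treated replicate 5 (186.1 CPM) and high in aged LPS-treated replicate 3 (293.1 CPM). Mir155hg was high in aged untreated replicate 4 (0.6584 CPM, 12 counts) and in aged LPS-treated replicate 3 (8.958 CPM). Replicate 3 of the aged LPS-treated group was also the lowest for Snhg1 (44.17 CPM). In young untreated replicate 1, Snhg3 (45.48 CPM) and Snhg8 (17.3 CPM) were low, as was Snhg8 in young LPS-treated replicate 1 (21.12 CPM), while Snhg8 was high in aged LPS-treated replicate 5 (31.79 CPM).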

How the results depend on the processing

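The direction of Mir155hg, Mir22hg and Neat1 with LPS, and of Mir155hg, Mir22hg and Malat1 for age under LPS, was the same in all alternatives that gave a value (12 or 13 each), as was the call except for Neat1 in aged cells and Malat1. Neat1 in aged cells lost its call with DESeq2 (edgeR's p of 0.0489 becoming an adjusted p of 0.110), with library size alone, with at least 10 counts in every library and without replicates 1, 2, 3 or 5 (adjusted p up to 0.169). The replicate block changed the call of 1 member result, Malat1 for age under LPS, and no other.

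Called members for LPS in young cells went from 7 to 3 with library size alone and to 3 with a log2 change of at least 0.5, and were 5 to 7 without each replicate. For LPS in aged cells they went from 3 to 1 with at least 10 counts in every library, where Mir155hg could not be tested, and were 2 to 3 without each replicate. For age under LPS they went from 2 to 1 with that minimum and were 2 to 3 without each replicate. Over all genes, calls for age without LPS went from 1475 to 2221 with the replicate block in DESeq2, 2204 in edgeR, and 622 at a threshold of 0.01, and were 548 to 1193 without each replicate. For age under LPS, 3717 became 2333 at 0.01 and 2156 to 3563 without each replicate. The 818 calls for the difference of the responses became 1364 with the block in DESeq2, 328 at 0.01 and 189 to 697 without each replicate. The cause was not tested.

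Reversals were confined to values that did not pass the threshold in the fit reported. For age without LPS, Neat1 was −0.008 and −0.01 with the block in DESeq2 and edgeR and −0.093 without replicate 4 (−0.093 to 0.102 without each replicate), Snhg8 0.05 and 0.003 without replicates 3 and 4 (from −0.176), Mir22hg 0.035 and 0.032 without replicates 3 and 4 (from −0.226), and Mir155hg −0.336 without replicate 4 (up to 0.704). For LPS in young cells, Malat1 was 0.003 with DESeq2 size factors and 0.042 and 0.006 without replicates 1 and 5 (from −0.082). With library size alone, LPS in young cells gave Snhg8 −0.027 and Snhg12 −0.058, LPS in aged cells Gas5 −0.103, Snhg1 −0.051, Snhg3 −0.027, Snhg8 −0.05, Snhg12 −0.154 and Dleu2 −0.064, and age under LPS Gas5 0.02, Snhg1 0.014 and Dleu2 0.003. Snhg12 with LPS in aged cells was −0.011 without a filter and −0.046 and −0.03 without replicates 1 and 5 (up to 0.037). Under LPS, the age difference of Dleu2 was 0.003 without replicate 3 and that of Gas5 0.018 without replicate 4 (from −0.111). Depth limited Mir155hg in untreated cells, where libraries held 1 to 12 counts.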
